A study of Mus musculus with 8 samples.

Results

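The proteasome subunit genes of mouse liver were compared between mice given water and mice given sorbate. They were taken by symbol: Psma, Psmb, Psmc, Psmd, Psme or Psmf followed only by a number, with at least 40 counts summed over the 8 libraries. Such a symbol is carried by 44 of the 55487 genes measured, and 43 met the minimum. The lowest of the 43, Psma8, had 100 counts in all. The 1 gene left out, Psmb11 of the thymus-specific proteasome, had 0 counts in every library, a count that allows a level of up to 0.112 to 0.183 CPM per library (3 counts; counting error only). All 43 passed the filter on low counts and were tested.

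Both groups were male C57Bl/6J mice, an inbred strain, at about 10 weeks of age, and the livers were taken 4 hours after an oral gavage. The control group (4 libraries) received water and the sorbate group (4 libraries) received potassium sorbate at 17 mg, a food preservative and the salt of an unsaturated short fatty acid. No transgene, deletion or second agent is given in the labels for either group. Whether every library came from its own mouse is not said, so the tests take in only the spread among these libraries, which may be technical. In whole liver, fewer cells of a type and less RNA per cell cannot be told apart.

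The proteasome is the protease that degrades proteins tagged with ubiquitin. Its barrel, the 20S core, stacks outer rings of alpha subunits (Psma genes) around inner rings of beta subunits (Psmb genes), of which Psmb5, Psmb6 and Psmb7 carry the catalytic sites. The 19S cap binds and unfolds substrates and feeds them into the barrel with a ring of ATPases (Psmc genes) and a set of other subunits (most Psmd genes). Interferon-gamma raises the immunoproteasome subunits Psmb8, Psmb9 and Psmb10, which take the places of Psmb5, Psmb6 and Psmb7 in newly built cores, and the activator genes Psme1 and Psme2.

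Total counts per library ran from 15773932 to 25844731. The 8 hepatocyte markers examined, among them Alb, Ttr and Cps1, were all detected and summed to 68904 to 85606 CPM in the controls and 82936 to 106853 CPM after sorbate (CPM, counts scaled by library size after TMM correction for differences in composition). Control 2 stood apart from the other controls: it scored 15.4 on the first principal component (53.6% of the variance), where the other controls scored −49.1 to −42.1 and the sorbate libraries 21.9 to 37.8. The markers of some other liver cells differed as well. Of 12 Kupffer cell and macrophage markers 6 were called lower and 0 higher with sorbate by edgeR. The shares over all genes tested were 6.30% lower and 6.14% higher. The Kupffer cell and macrophage markers summed to 314 CPM in control 2, 558 to 737 CPM in the other controls and 231 to 437 CPM after sorbate. The 8 neutrophil markers summed to 2.23 CPM in control 2, 14.9 to 27.0 CPM in the other controls and 1.22 to 3.11 CPM after sorbate. The 11 T and NK cell markers summed to 11.9 to 16.6 CPM and 6.27 to 12.5 CPM, the 9 sinusoidal endothelial markers to 146 to 305 CPM and 160 to 195 CPM, and the 6 bile duct markers to 52.0 to 248 CPM and 27.6 to 42.4 CPM, in the controls and with sorbate. Of the 9 endothelial markers 1 was called lower. Among markers tested, 2 of 2 for neutrophils, 2 of 4 for bile duct and 1 of 3 for T and NK cells were called lower. For B and plasma cells 1 of 3 tested was called lower, and 1 of the 8 hepatocyte markers was called higher. The 7 B and plasma cell markers summed to 14.1 to 24.2 CPM in the controls and 5.48 to 14.4 CPM with sorbate. The 8 stellate cell markers summed to 146 to 229 CPM and 151 to 252 CPM, in the same order. The 9 dendritic cell markers summed to 44.8 to 49.3 CPM and 29.6 to 63.4 CPM. Of the stellate and dendritic cell markers 0 were called. No marker of these lists was at 0 in all libraries. Their part in the results below was not tested.

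Transcripts of the constitutive 20S core had a summed level 0.763 times that of the controls 4 hours after sorbate, those of the 19S cap one of 0.839 times, and the immunoproteasome genes showed no called difference. The cap sums overlapped between the groups through control 2, and 1 of the 17 cap genes was called lower (5.88%). Of the 43 genes 8 were called lower and 1 higher (edgeR's quasi-likelihood test, Benjamini-Hochberg adjustment over 13312 genes, threshold 0.05). Of all genes tested 6.30% were called lower and 6.14% higher, against 18.6% and 2.33% of the proteasome genes. Under an unadjusted 0.05, 22 of the 43 genes were lower and 2 higher, as were 2036 and 1892 of the 13312 genes tested. The log2 fold change was below 0 in 39 of the 43 genes, as in 52.2% of all genes, and its median was −0.27 against −0.02 over all genes tested. The groups did not overlap, with every sorbate library below every control, in 15 of the 43 genes (34.9%), where the background is 8.32%. The reverse held in 1 gene, where the background is 9.42%. Summed over the 43 genes the level was 3361 ± 273 CPM in the controls and 2790 ± 108 CPM after sorbate (SD, n = 4 each), with all 4 sorbate libraries below all 4 controls and sorbate 2 close to control 2.

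These calls depended on single libraries. Without control 2, the control nearest to the sorbate libraries, 21 genes were called lower and 1 higher, on a background of 14.1% and 15.1%. Leaving out any other library gave fewer: 6 lower without control 1, 3 without sorbate 1 or sorbate 2, and 1 without control 3, control 4, sorbate 3 or sorbate 4. The calls over all genes moved too: 357 to 572 were lower in these leave-outs, against 838 with all 8 libraries. With 1 surrogate variable as a covariate edgeR called 0 of the 43 genes (lowest adjusted p = 0.0607, with 9 genes under an unadjusted 0.05). Over all genes it then called 293 lower and 313 higher. Control 2 had a value of 0.471 for this variable, the sorbate libraries had 0.0844 to 0.305, and the other controls had −0.532 to −0.365. DESeq2 called 12 lower and 1 higher, and limma-voom with sample quality weights 24 lower and 1 higher. Over all genes DESeq2 called 1239 lower and 1186 higher, and limma-voom 1944 lower and 1968 higher. Scaling by library size alone left 2 called lower and 1 higher and moved the median over all genes to 0.11. The proteasome genes then had a median of −0.14, which lies 0.25 below the median of all genes, as it does with TMM.

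**Figure D1:**
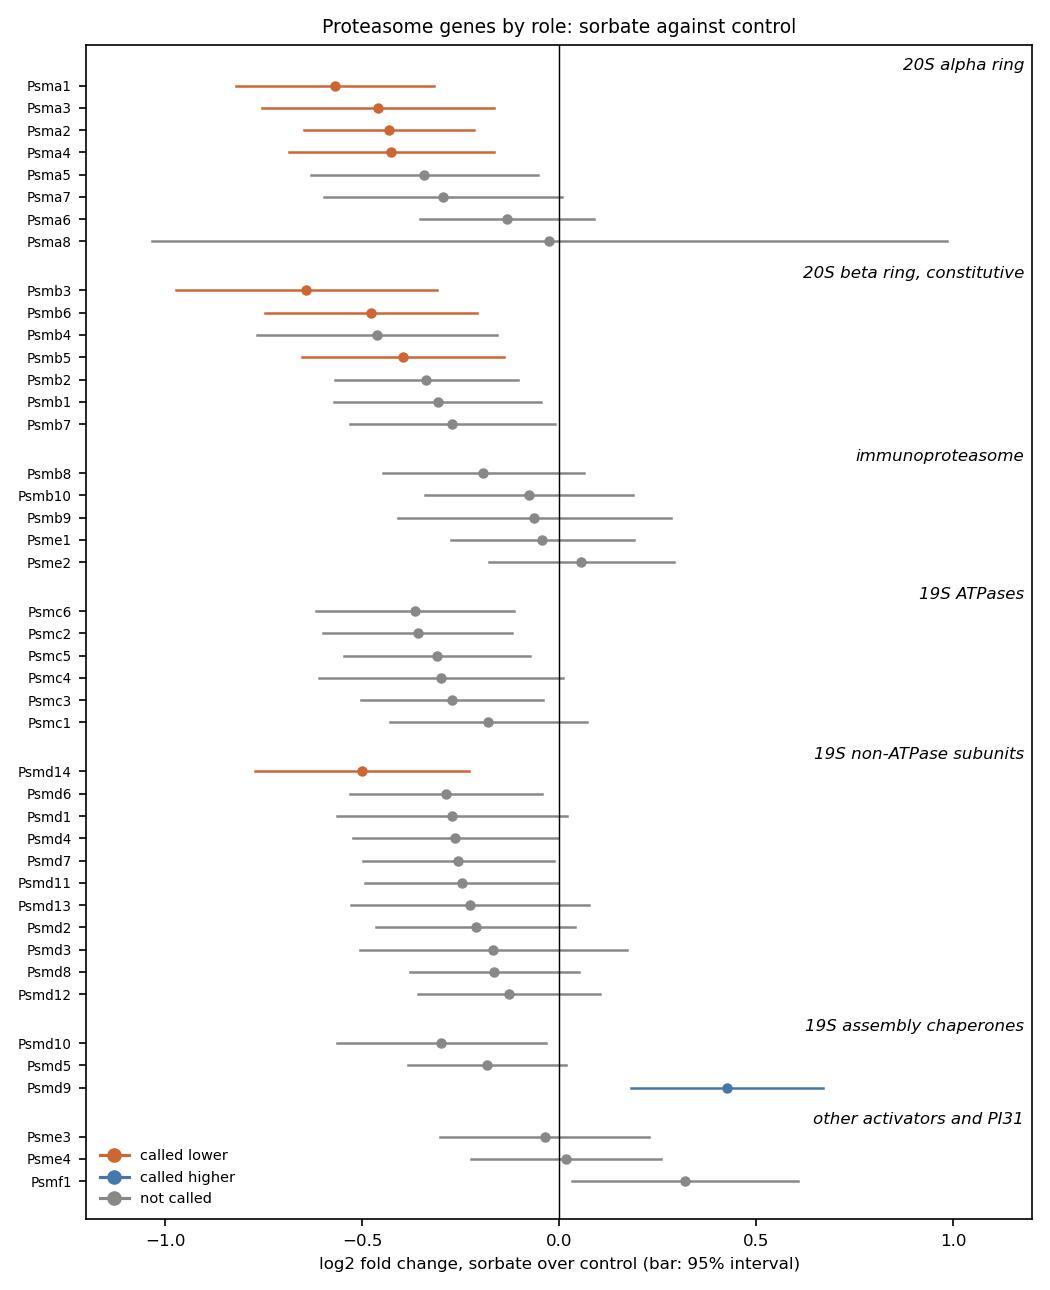
Log2 fold change of sorbate over control (horizontal axis) for the 43 proteasome genes grouped by role (vertical axis), with bars for the 95% interval of edgeR's estimate from 4 libraries per group. Of the 14 constitutive core genes all lie left of 0 and 7 are called lower, while the 5 immunoproteasome genes lie between −0.19 and 0.06.

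The alpha ring, which gates the barrel, fell in 4 of its 8 genes and rose in 0 (unadjusted, 5 were under 0.05, all lower). Its summed level was 648, 605, 750 and 785 CPM in controls 1 to 4 and 547, 558, 534 and 499 CPM in sorbate 1 to 4. The sorbate libraries lay below every control, and control 2 was the lowest control.

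Psma1 (ENSMUSG00000030751, GRCm38 chromosome 7, 114264606 to 114276118) stood at 101.9, 95.8, 119.5 and 122.7 CPM in controls 1 to 4 and at 79.0, 76.9, 72.9 and 67.6 CPM in sorbate 1 to 4. All sorbate values of Psma1 lay below all control values. The log2 fold change was −0.57 (SE 0.11, adjusted p = 0.0115), a fall by 32.6%. Of the 9 called genes Psma1 alone kept its call with each of the 8 libraries left out in turn (−0.62 to −0.51, highest adjusted p 0.0447). Under the surrogate variable it had −0.46 (adjusted p = 0.0607). Psma2 (chromosome 13, 14613240 to 14674236) stood at 86.0, 77.1, 89.1 and 93.0 CPM in the controls and at 66.9, 61.1, 64.6 and 63.2 CPM after sorbate. Its log2 fold change was −0.43 (SE 0.10, adjusted p = 0.0189), and all sorbate libraries lay below control 2, the lowest control.

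Psma3 and Psma4 fell with less margin. Psma3 (chromosome 12, 70974621 to 70996347) stood at 94.99, 98.1, 127 and 135 CPM in the controls and at 80.0, 87.8, 85.7 and 77.6 CPM after sorbate (log2 fold change −0.46, SE 0.13, adjusted p = 0.0473). Psma4 (chromosome 9, 54950790 to 54958030) stood at 116, 123, 141 and 157 CPM in the controls and at 104, 102, 103 and 90.4 CPM after sorbate (−0.43, SE 0.12, adjusted p = 0.0408). In both genes controls 1 and 2 were the low controls and lay close above the sorbate libraries. The other constitutive alpha genes did not pass the test. Psma5 had a log2 fold change of −0.34 (adjusted p = 0.111), Psma7 of −0.30 (adjusted p = 0.179) and Psma6 of −0.13 (adjusted p = 0.403). Psma8, an alpha subunit known from testis, averaged 0.595 ± 0.220 CPM (control) and 0.569 ± 0.302 CPM (sorbate; SD, n = 4 each). The interval of its log2 fold change ran from −1.03 to 0.98, so a difference within these bounds was not detectable at this depth. Psma5 has a near-identical pseudogene, Psma5-ps, with 717 counts in all against 9255 for Psma5, so reads of this pair may be split.

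The constitutive beta ring, which holds the catalytic chambers, fell in 3 of 7 genes (42.9%, against 6.30% of all genes tested) and rose in 0. All 7 were lower at an unadjusted p under 0.05, as were 2036 of the 13312 genes tested. The summed level of the beta ring was 710, 635, 761 and 843 CPM in controls 1 to 4 and 534, 618, 572 and 515 CPM in sorbate 1 to 4. Sorbate 2 came close to control 2, and the groups did not overlap.

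Psmb3, a beta subunit without a catalytic site (chromosome 11, 97703399 to 97713500), had the largest fall of the 43 genes. It stood at 76.8, 76.6, 90.4 and 112 CPM in controls 1 to 4 and at 56.5, 65.2, 59.6 and 46.7 CPM in sorbate 1 to 4, and its log2 fold change was −0.64 (SE 0.15, adjusted p = 0.0220). Every sorbate library lay below every control, and sorbate 4 was the lowest. Over the leave-outs the change ran from −0.71 to −0.51, and the call held in 3 of 8.

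The caspase-like catalytic subunit gene Psmb6 (chromosome 11, 70525367 to 70527858) stood at 111, 93.9, 115 and 125 CPM in the controls and at 73.8, 88.1, 85.7 and 71.3 CPM after sorbate (log2 fold change −0.48, SE 0.12, adjusted p = 0.0296). Psmb5, which encodes the chymotrypsin-like subunit (chromosome 14, 54614119 to 54618022), stood at 51.2, 43.1, 49.2 and 59.0 CPM in the controls and at 36.4, 41.6, 40.2 and 35.7 CPM after sorbate (−0.40, SE 0.12, adjusted p = 0.0485). Control 2 was the lowest control for both, and in Psmb5 it lay just above sorbate 2. Psmb7, which encodes the trypsin-like subunit (chromosome 2, 38588036 to 38644087), stood at 131, 144, 161 and 169 CPM in the controls and at 122, 143, 121 and 115 CPM after sorbate. The groups overlapped through sorbate 2, and the difference did not pass the test (−0.27, SE 0.12, adjusted p = 0.153). Its exons overlap those of Nek6 on the other strand over 11.8% of the exon length, and whether strand was used in counting is not stated. The remaining beta genes missed the threshold as well: Psmb4 with −0.46 (adjusted p = 0.0524), Psmb2 with −0.34 (adjusted p = 0.0612) and Psmb1 with −0.31 (adjusted p = 0.114).

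**Figure D2:**
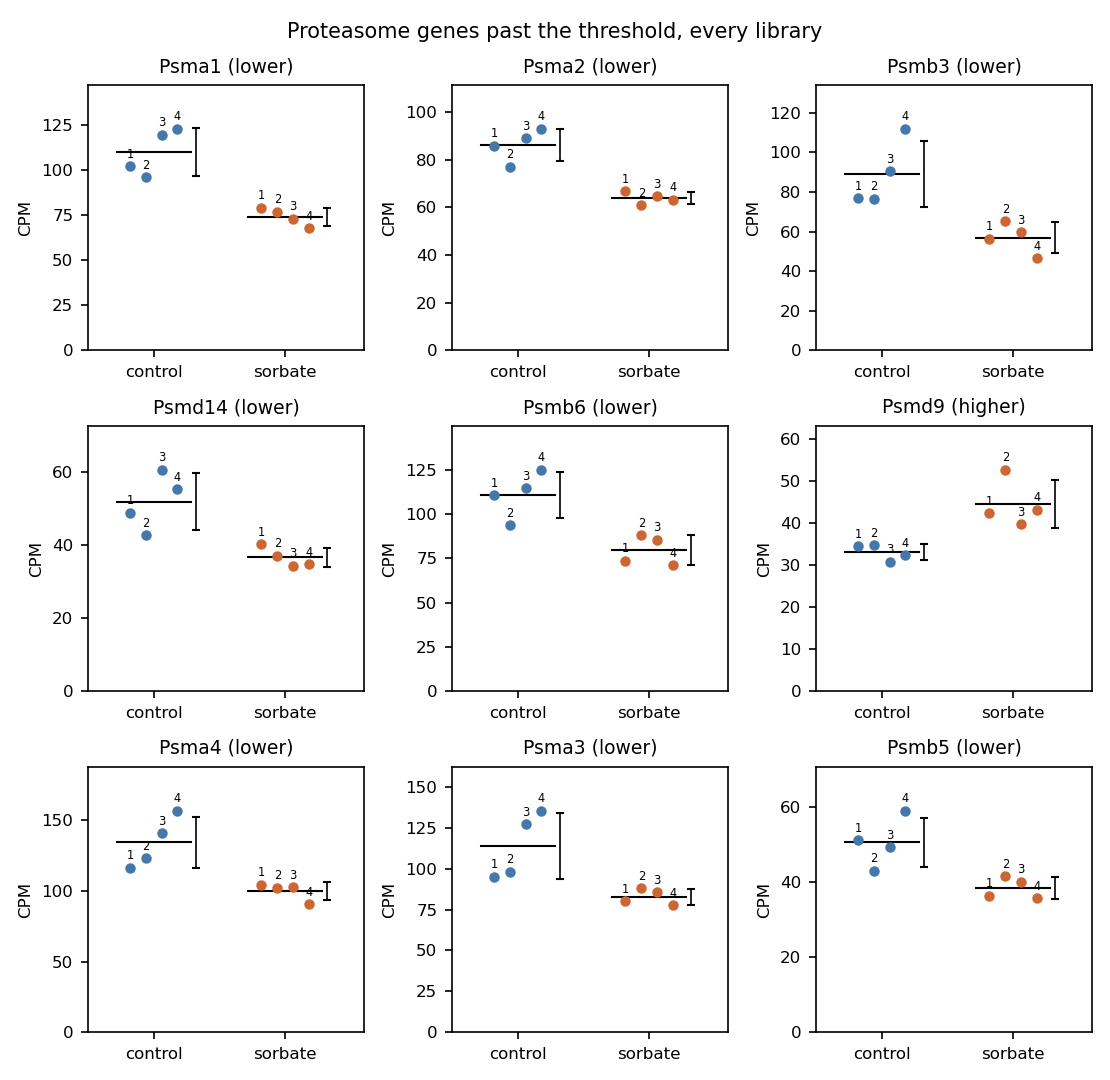
CPM in every library (vertical axes, from 0) of the 9 proteasome genes past the threshold, with numbers for the replicates, lines for group means and bars for the SD (n = 4 per group). In the 8 genes called lower every sorbate library lies below every control, and in Psmd9 every sorbate library lies above.

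The 8 calls other than Psma1 were each lost in most leave-outs, always with the direction kept. Psma2 and Psmd14 kept the call in 3 of 8, as Psmb3 did, Psma3, Psma4, Psmb6 and Psmd9 in 2, and Psmb5 in 1. The highest adjusted p over the leave-outs ran from 0.0646 for Psma2 to 0.140 for Psma3. With the library size alone as scaling only Psma1, Psmb3 and Psmd9 stayed past the threshold.

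The immunoproteasome genes had no called difference. Of the 5 genes 0 passed edgeR's test, 0 were under an unadjusted 0.05, and DESeq2 and limma-voom called 0 as well. Their summed level was 178, 172, 170 and 179 CPM in controls 1 to 4 and 159, 189, 172 and 156 CPM in sorbate 1 to 4, so that the sorbate libraries lay on both sides of the controls. The median log2 fold change of the 5 genes was −0.06 with TMM and 0.05 with the library size alone.

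Psmb8, the inducible partner of Psmb5 (chromosome 17, 34197721 to 34201454), stood at 28.1, 27.99, 25.9 and 33.0 CPM in controls 1 to 4 and at 22.7, 28.6, 26.2 and 23.1 CPM in sorbate 1 to 4. The interval of its log2 fold change was −0.45 to 0.06 (estimate −0.19, adjusted p = 0.296), which takes in a fall as large as that of Psmb5. Psmb9, the partner of Psmb6 (34181987 to 34187764 on chromosome 17), stood at 16.3, 21.3, 13.2 and 13.7 CPM in the controls and at 14.02, 16.8, 16.3 and 14.6 CPM after sorbate. Control 2 had the highest Psmb9 level of all 8 libraries. The estimate of −0.06 (interval −0.41 to 0.28, adjusted p = 0.822) turned to 0.11 without control 2 and to 0.05 with the library size alone. Psmb10, the partner of Psmb7 (chromosome 8, 105935735 to 105938444), stood at 28.5, 25.1, 31.4 and 28.4 CPM in the controls and at 23.5, 28.8, 30.8 and 24.4 CPM after sorbate (−0.08, interval −0.34 to 0.19, adjusted p = 0.705). The groups overlapped, and the sign turned with the library size alone (0.05).

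Psme1 and Psme2 encode the PA28 activator that opens the barrel in place of the 19S cap. Psme1 (chromosome 14, 55578123 to 55581529) stood at 63.5, 53.0, 53.9 and 54.2 CPM in controls 1 to 4 and at 54.1, 60.5, 53.5 and 49.8 CPM in sorbate 1 to 4 (log2 fold change −0.04, interval −0.28 to 0.19, adjusted p = 0.818; 0.08 with the library size alone and 0.02 without control 1). Psme2, a neighbour on the same chromosome (55587441 to 55591113), stood at 41.4, 44.4, 45.3 and 49.3 CPM and at 44.4, 54.0, 45.3 and 43.8 CPM (0.06, interval −0.18 to 0.29, adjusted p = 0.762; −0.02 without sorbate 2). Both genes overlapped between the groups. Psme2 has a near-identical copy, Psme2b, with 2171 counts against 7678 for Psme2, so the values of Psme2 are uncertain. Psme2b had a log2 fold change of −0.13 (adjusted p = 0.443).

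Within a library the ratio of an inducible subunit to its constitutive partner does not depend on scaling. It is given as reads of the first gene per 100 reads of the second, which is not a ratio of molecules because the genes differ in exon length. For Psmb8 to Psmb5 the ratio was 54.8, 65.0, 52.7 and 56.0 in controls 1 to 4 and 62.4, 68.8, 65.1 and 64.8 in sorbate 1 to 4. All sorbate libraries lay above controls 1, 3 and 4, and control 2 lay among them. For Psmb9 to Psmb6 it was 14.8, 22.7, 11.5 and 10.98 in the controls and 18.99, 19.1, 19.1 and 20.5 with sorbate. Here control 2 had the highest ratio of all libraries and the other controls the lowest. For Psmb10 to Psmb7 it was 21.7, 17.5, 19.5 and 16.8 in the controls and 19.4, 20.2, 25.4 and 21.1 with sorbate, and the groups overlapped through controls 1 and 3. The difference of the mean log2 ratios was 0.20, 0.43 and 0.19 for the 3 pairs, and 0.26, 0.65 and 0.15 without control 2. No pair separated the groups, and the differences were not tested.

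**Figure D3:**
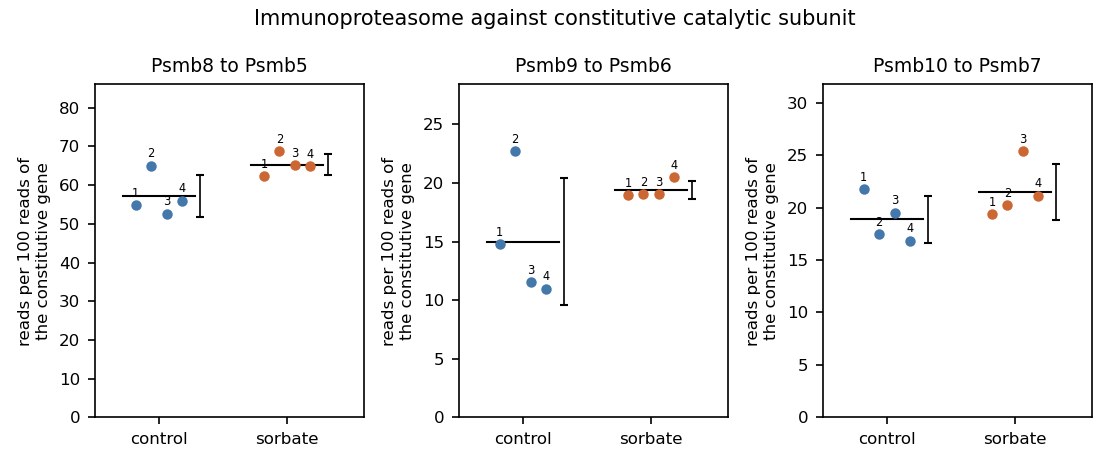
Reads of each immunoproteasome catalytic gene per 100 reads of its constitutive partner (vertical axes, from 0) in every library, with replicate numbers, group means and SD bars (n = 4 per group). Control 2 lies with or above the sorbate libraries for Psmb8 to Psmb5 and Psmb9 to Psmb6, and the groups overlap in all 3 panels.

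In the 19S cap 1 of 17 genes was called lower (5.88%, against 6.30% of all genes tested) and 0 higher. All 17 cap genes had a log2 fold change below 0 (median −0.26), as did 52.2% of all genes tested. The summed level of the cap was 1575, 1271, 1567 and 1471 CPM in controls 1 to 4 and 1223, 1295, 1178 and 1240 CPM in sorbate 1 to 4. Control 2 lay among the sorbate libraries and the other controls lay above all of them. Control 2 was the lowest control in 14 of the 17 cap genes and in 11 of the 14 constitutive core genes. Without it 9 cap genes and 12 core genes were called lower, where 14.1% of all genes tested were.

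The called gene was Psmd14 (chromosome 2, 61711694 to 61800376), which encodes the metalloprotease that removes ubiquitin chains from bound substrates. It stood at 48.8, 42.7, 60.5 and 55.3 CPM in the controls and at 40.2, 37.1, 34.4 and 34.8 CPM after sorbate (log2 fold change −0.50, SE 0.12, adjusted p = 0.0261). Every sorbate library lay below control 2, the lowest control. The other 10 non-ATPase genes ran from −0.29 for Psmd6 to −0.13 for Psmd12, and the ubiquitin receptor gene Psmd4 had −0.26 (adjusted p = 0.163). Psmd2, a large scaffold subunit, had −0.21 (adjusted p = 0.244). Psmd3, another cap subunit, had a log2 fold change of −0.17 (adjusted p = 0.499). Its controls were spread widely: it stood at 98.3 and 55.6 CPM in controls 1 and 2 and at 76.2 and 72.7 CPM in controls 3 and 4. Psmd13 shares exon sequence with Sirt3 on the other strand over 10.1% of its length.

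The 6 ATPase genes, whose products unfold the substrate, had 0 calls with edgeR, 4 under an unadjusted 0.05, and 2 with DESeq2 and 5 with limma-voom, all lower. They ran from −0.37 for Psmc6 (adjusted p = 0.0611) and −0.36 for Psmc2 (adjusted p = 0.0549) to −0.18 for Psmc1 (adjusted p = 0.318), with Psmc5, Psmc4 and Psmc3 between them. In Psmc2, Psmc5 and Psmc6 every sorbate library lay below every control, as in 8.32% of all genes tested.

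**Figure D4:**
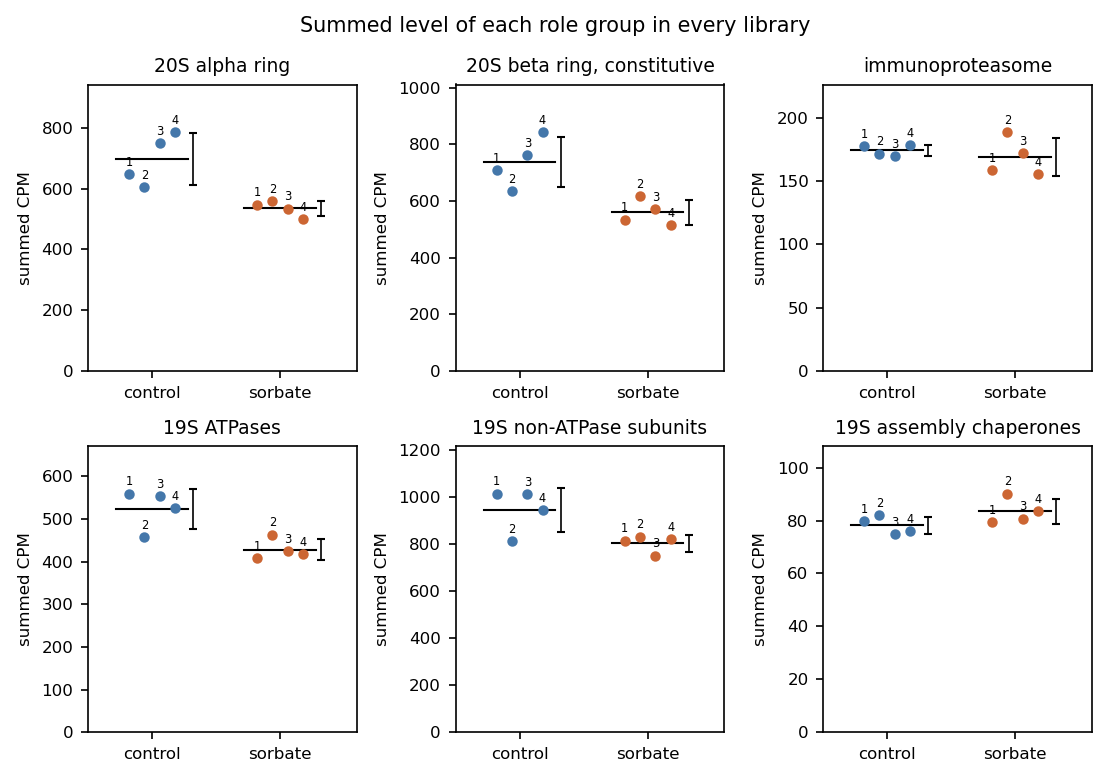
Summed CPM of 6 role groups in every library (vertical axes, from 0), with replicate numbers, group means and SD bars (n = 4 per group). The alpha and beta rings separate the groups, the cap groups do so apart from control 2, and the immunoproteasome and chaperone sums overlap.

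Psmd9 was the 1 gene of the 43 that was called higher. It encodes a chaperone that helps to assemble the ATPase ring and is not part of the finished cap (chromosome 5, 123169413 to 123250131). It stood at 34.6, 34.7, 30.8 and 32.4 CPM in controls 1 to 4 and at 42.4, 52.7, 39.8 and 43.2 CPM in sorbate 1 to 4. The controls were within 4 CPM of each other, control 2 among them, and sorbate 2 was the highest library. The log2 fold change was 0.43 (SE 0.11, adjusted p = 0.0322). An annotated RNA on the other strand, Gm26745, covers 25.5% of the exon length of Psmd9 and was not analysed here. Reads from the 2 strands cannot be told apart unless strand was used. The other chaperones of the cap did not pass the test, although their groups did not overlap. Psmd10 (gankyrin) averaged 10.5 ± 0.330 and 8.55 ± 0.894 CPM (log2 fold change −0.30, adjusted p = 0.126), and Psmd5 34.5 ± 1.71 and 30.4 ± 1.59 CPM (−0.18, adjusted p = 0.208; SD, n = 4 each).

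The activators outside the immunoproteasome and the inhibitor PI31 had 0 calls (edgeR; 1 of 3 under an unadjusted 0.05, and 0 with DESeq2 or limma-voom). Psme3, the nuclear PA28 activator, stood at 40.4 to 52.5 CPM in the controls and 39.8 to 51.1 CPM after sorbate (log2 fold change −0.04, interval −0.30 to 0.23; 0.09 with the library size alone). Psme4, which encodes the large activator PA200, stood at 124 to 143 CPM and 117 to 149 CPM (0.02, interval −0.22 to 0.26; −0.01 with limma-voom). Psmf1, which encodes PI31, stood at 26.1, 24.7, 23.0 and 20.4 CPM in the controls and at 34.4, 29.4, 23.8 and 29.8 CPM after sorbate. Its log2 fold change of 0.32 (interval 0.03 to 0.61, adjusted p = 0.129) missed the threshold, and sorbate 3 lay within the range of the controls.

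Divided by exon length, the constitutive core genes had a higher median than the cap genes. The 14 constitutive core genes had a median of 45.7 CPM per kilobase of annotated exon in the controls and 36.9 with sorbate, and the 17 cap genes had medians of 27.2 and 22.8. The parts were not ranked in this way: control medians were 53.3 for the beta ring and 33.9 for the alpha ring with Psma8. They were 39.7 for the ATPases and 26.7 for the non-ATPase subunits. In the controls the core genes ran from 23.5 CPM per kilobase for Psma2 to 77.9 for Psma6, a 3.31-fold span. The inducible catalytic genes were lower, at 16.6 CPM per kilobase for Psmb10, 8.50 for Psmb8 and 4.41 for Psmb9, where Psmb7, Psmb5 and Psmb6 had 44.2, 56.3 and 59.3. Psmd9 had 4.57 CPM per kilobase in the controls and 6.14 with sorbate, among the lowest of the 43. These levels rest on the union of all annotated exons, which lowers the value of genes with long rare transcripts.

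**Figure D5:**
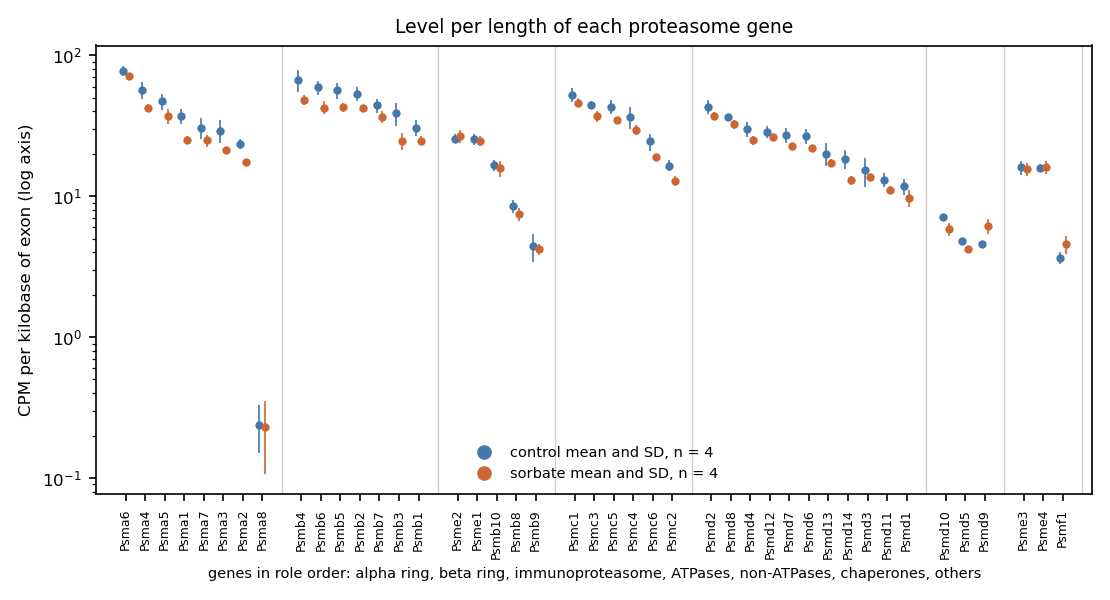
CPM per kilobase of annotated exon (vertical log axis) of the 43 genes in role order, as mean and SD of 4 control and 4 sorbate libraries. The constitutive core genes lie between 17.4 and 77.9, the inducible catalytic genes between 4.22 and 16.6, and Psma8 lies near 0.2 in both groups.

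Promoters are shown for the 3 genes called lower with the lowest p in the alpha ring (Psma1), among the catalytic genes (Psmb6) and in the cap (Psmd14), and for Psmd9, the gene called higher. Each line gives the 250 bases before the RefSeq start (GRCm38.p6), 5′ to 3′ along the gene, at chr7:114276117-114276366 (minus strand), chr11:70525107-70525356, chr2:61711444-61711693 and chr5:123227940-123228189 (plus strand) in this order. Capitals mark matches on either strand to CCAAT, the letters bound by NF-Y, to TGACNNNGC, the antioxidant response element read by NRF1 and NRF2, and to GAAA followed after 2 bases by GAAA, a core of the interferon response element (IRF).
Psma1: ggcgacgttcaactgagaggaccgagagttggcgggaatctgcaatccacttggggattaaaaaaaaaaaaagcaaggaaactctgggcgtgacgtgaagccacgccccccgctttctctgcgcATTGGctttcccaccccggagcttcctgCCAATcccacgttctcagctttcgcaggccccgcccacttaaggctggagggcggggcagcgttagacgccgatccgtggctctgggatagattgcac
Psmb6: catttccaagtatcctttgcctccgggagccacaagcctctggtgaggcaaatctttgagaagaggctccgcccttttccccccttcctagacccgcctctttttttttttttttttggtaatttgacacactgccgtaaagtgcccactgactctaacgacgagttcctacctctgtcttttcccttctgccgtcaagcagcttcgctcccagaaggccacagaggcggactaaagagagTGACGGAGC
Psmd14: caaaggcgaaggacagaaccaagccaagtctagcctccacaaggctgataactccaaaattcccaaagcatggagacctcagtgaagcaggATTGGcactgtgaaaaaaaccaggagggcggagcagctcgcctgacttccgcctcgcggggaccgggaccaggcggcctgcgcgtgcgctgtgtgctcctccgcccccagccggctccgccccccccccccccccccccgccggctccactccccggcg
Psmd9: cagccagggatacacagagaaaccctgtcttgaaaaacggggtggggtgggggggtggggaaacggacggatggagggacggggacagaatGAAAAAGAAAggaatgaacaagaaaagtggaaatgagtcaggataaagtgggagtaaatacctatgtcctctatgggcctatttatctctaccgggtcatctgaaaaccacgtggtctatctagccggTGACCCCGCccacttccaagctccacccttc
Psma1 has CCAAT matches that begin 126 and 98 bases before the start, Psmd14 has one at 159 bases, and Psmb6 has an antioxidant response element match, TGACGGAGC, 9 bases before it. Psmd9 has such a match, TGACCCCGC, at 31 bases and an interferon element match, GAAAAAGAAA, at 159 bases. The Psmd9 window lies inside the annotated gene, which begins at 123169413, so these matches do not lie before its outermost start.

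Promoters of 36 of the 43 genes were found in the RefSeq table. CCAAT matched in 13 of the 36, or 36.1%, against 33.8% of all 32851 promoter windows of the same length. The units differ, which favours the members: a gene counts when any of its windows matches, while the background counts single windows. Psma6, Psmc2 and Psme2 have several windows. Of the 8 genes called lower, CCAAT matched in 5 (Psma1, Psma2, Psma3, Psmb3 and Psmd14), TGACNNNGC in 2 and the IRF motif in 1. These counts were not tested. TGACNNNGC matched in 5 of the 36 (13.9%, against 10.2% of all windows), namely Psmb5, Psmb6, Psmc6, Psmd12 and Psmd9. The IRF motif matched in 3 (8.33%, against 2.98%), Psmb3, Psmd4 and Psmd9, and in 0 of the 5 immunoproteasome promoters. Some windows hold annotated exon: summed over the genes at the site, 250 bases for Psmb8, 278 for Psmb9 and 139 for Psme1. Windows of other members hold such bases too, among them 416 for Psmd13, 319 for Psma4, 232 for Psmd1, 206 for Psma7 and 176 for Psma2. The CCAAT matches of Psma7 and Psma2 are among those counted above. The Psmb8, Psmb9 and Psme1 windows lie inside the annotated gene, so the sequence before its outermost start was not searched. The same holds for Psmd5, Psmd9, Psmd13 and Psmf1. The 0 therefore does not show that the immunoproteasome genes lack the element. A match is a string of letters and says nothing of binding here.

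Genes around the proteasome were described from lists. NRF1, encoded by Nfe2l1, is the factor that raises proteasome genes when the protease is inhibited. Nfe2l1 stood at 100.02, 91.8, 82.4 and 84.0 CPM in controls 1 to 4 and at 104, 106, 89.4 and 114 CPM in sorbate 1 to 4 and did not pass the test (log2 fold change 0.20, SE 0.11, adjusted p = 0.253). Of 12 tested genes of NRF1, its processing and its partners 4 rose and 1 fell, where 6.14% of all genes tested rose and 6.30% fell (edgeR). Nfe2l2, which encodes the related factor NRF2, rose from 30.7 ± 2.22 to 51.9 ± 7.03 CPM (SD over 4 libraries each). Its log2 fold change was 0.76 (SE 0.12, adjusted p = 0.00408), and control 2 was at 32.6 CPM, level with control 1. The small MAF partners Maff and Mafg rose: for Maff the log2 fold change was 1.59 (SE 0.29, adjusted p = 0.00773), and for Mafg it was 1.03 (SE 0.20, adjusted p = 0.0106). Bach1, a repressor at the same DNA element, chosen after its value was seen, had 0.88 (adjusted p = 0.0328). The call of Bach1 was lost with the surrogate variable and with any library other than control 2 left out. Nfyb, a subunit of NF-Y, fell from 30.2 ± 3.80 to 17.4 ± 2.07 CPM (−0.80, SE 0.13, adjusted p = 0.00428), while the other NF-Y genes Nfya and Nfyc, chosen after their values were seen, had −0.09 (adjusted p = 0.742) and 0.15 (adjusted p = 0.440). The calls of Nfe2l2, Maff, Mafg and Nfyb held in all 8 leave-outs and with the surrogate variable. The median of the list was 0.15.

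Assembly and associated factors outside the symbol rule had 1 call among 16 genes. For this list and the next, the share over all genes tested was 12.4% in either direction (edgeR). Zfand5, a proteasome-binding zinc finger protein, rose from 26.6 ± 3.81 to 36.3 ± 3.72 CPM (SD over 4 libraries each; 0.45 on the log2 scale, SE 0.13, adjusted p = 0.0430), a call that held in 2 of 8 leave-outs. The core assembly factor Pomp had −0.44 (adjusted p = 0.0650) and the chaperones Psmg1, Psmg2, Psmg3 and Psmg4 had 0.01, −0.23, 0.05 and −0.37 (adjusted p from 0.219 to 0.948), all chosen after their values were seen. The list median was 0.00. Of 19 ubiquitin, shuttle and p97 genes 1 fell and 0 rose (edgeR; 1 higher and 4 lower under an unadjusted 0.05, 0 higher and 2 lower with DESeq2). This was Nsfl1c, which encodes the p97 cofactor p47 (54.7 ± 3.43 and 40.6 ± 2.39 CPM; SD over 4 libraries each; log2 fold change −0.43, SE 0.10, adjusted p = 0.0183; held in 5 of 8 leave-outs). The list median was −0.15.

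Of 24 genes of the interferon-gamma axis and class I presentation, the setting in which the immunoproteasome acts, 1 rose and 0 fell (edgeR; 2 higher and 4 lower under an unadjusted 0.05, 1 higher and 2 lower with DESeq2). Irf2, an interferon regulatory factor, rose from 38.7 ± 3.45 to 54.5 ± 9.07 CPM (SD over 4 libraries each; 0.49 on the log2 scale, SE 0.13, adjusted p = 0.0355; held in 3 of 8 leave-outs). Irf1 and Tap1, chosen after their values were seen, had 0.38 (adjusted p = 0.297) and 0.22 (adjusted p = 0.360). The list median was −0.11, beside −0.06 for the 5 immunoproteasome genes. Over all genes tested 6.14% were called higher and 6.30% lower by edgeR.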

How the data were processed

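Poly(A) RNA of whole liver was sequenced in 8 libraries (TruSeq kit, single-read flow cell, per the labels' protocols). The deposited table holds raw counts per Ensembl gene. The submitters' processing notes name FastQC, HISAT2 2.1.0, Subread, edgeR and the build GRCm38; the sources used here do not give counting settings, strand use or annotation release. Each column was tied to a sample through its name. The table has 4 more columns that fit no sample, which were left out. Groups came from the treatment label, and replicate numbers only name libraries. No replicate pair was near sampling noise (a chi-square of 22.9 to 218 per gene).

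The whole table was fitted. filterByExpr of edgeR (minimum count 10) kept 13312 of 55487 genes, libraries were scaled by TMM, and sorbate was compared with control with the two-sided quasi-likelihood test of edgeR 4.0.16 under R 4.3.3. P-values were adjusted by Benjamini-Hochberg, with 0.05 as the threshold. Intervals are at 95%, from the unshrunk coefficient and the F statistic. Alternatives were RLE size factors, library size alone, the sum of 40 counts as the only filter, DESeq2 1.42.0, limma-voom with quality weights (limma 3.58.1), 1 surrogate variable (sva 3.50.0) and each library left out. Exon lengths and coordinates come from GENCODE vM21 (GRCm38), where all 43 genes were found, and promoters from RefSeq. The fit was tested on simulated data.

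The members, gene lists and motifs were chosen with earlier results of these data known. Values in every library are given for the 5 immunoproteasome genes, Psmb5, Psmb6, Psmb7 and all members past the threshold. From each related list up to 4 genes with the lowest p past the threshold are named, and Nfe2l1 and Nfe2l2 always. Genes named outside this rule are members, near-identical copies or overlapping genes, or are marked.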

Additional observations from a re-analysis of the deposited data

Results flagged for a closer look

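In 134 groups of 4 libraries, covering each proteasome gene, each role sum, each ratio and each related gene with its values given, 1 library stood far from the other 3 in 6 cases, judged by its gap to the nearest library over the range of the group against Dixon’s 95% critical value. Such a gap arises by chance in about 1 in 20 groups. In Psmd4, a ubiquitin receptor of the cap, control 2 was low at 68.4 CPM against 88.5 to 90.7 CPM in the other controls (gap 0.900), and sorbate 2 was high at 77.8 CPM against 67.2 to 68.4 CPM (gap 0.882). Psme2 was high in sorbate 2 at 54.0 CPM against 43.8 to 45.3 CPM (gap 0.846), and Psme1 in control 1 at 63.5 CPM against 53.0 to 54.2 CPM (gap 0.891). Psma4 was low in sorbate 4 at 90.4 CPM against 102.2 to 104.3 CPM (gap 0.845). The log2 ratio of Psmb9 to Psmb6 was −2.29 in sorbate 4 against −2.40 to −2.39 in the other sorbate libraries (gap 0.949), a narrow range.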

How the results depend on the processing

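Directions of the 9 called genes held in all 14 alternatives. Called members (8 lower, 1 higher) became 2 lower with library size alone, 24 lower with limma-voom, and 0 lower and 0 higher with the surrogate variable; leave-outs gave 1 to 21 lower and 0 to 1 higher. All genes called (838 lower, 818 higher) became 550 and 1300 with library size alone, 1944 and 1968 with limma-voom, and 293 and 313 with the surrogate variable; leave-outs gave 357 to 1915 and 332 to 2053. A leave-out tests with fewer libraries, and for the other settings the cause was not tested. RLE factors called the same 9 genes, and the sum filter 8 of them.

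With library size alone the log2 difference of summed CPM was 0.074 for the immunoproteasome, −0.16 for the ATPases, −0.10 for the non-ATPase subunits, −0.12 for the cap, 0.22 for the chaperones, 0.17 for the other activators and −0.14 for all members, against −0.05, −0.29, −0.23, −0.25, 0.09, 0.04 and −0.27 with TMM.

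Assembly factors had 2 lower with DESeq2, 2 higher and 2 lower with limma-voom, 0 higher with the surrogate variable, and 0 to 2 higher and 0 to 2 lower in leave-outs. Ubiquitin genes had 1 higher and 0 lower with library size alone, 2 lower with DESeq2, 4 lower with limma-voom, 0 lower with the surrogate variable, and 0 to 3 lower in leave-outs. Interferon genes had 2 lower with DESeq2, 2 higher and 4 lower with limma-voom, 0 higher with the surrogate variable, and 0 to 3 higher and 0 to 6 lower in leave-outs. Autophagy genes had 4 higher and 3 lower with limma-voom, 0 higher with the surrogate variable, and 0 to 4 higher and 1 to 4 lower in leave-outs.

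Signs turned only in genes that were not called. With library size alone the values were 0.000142 for Psmd12, 0.083 for Psme1, 0.050 for Psmb10, 0.10 for Psma8, 0.089 for Psme3 and 0.054 for Psmb9. With the surrogate variable they were 0.13 for Psmd3, 0.036 for Psme1, 0.017 for Psmb10, 0.078 for Psme3 and −0.0063 for Psme4. With limma-voom they were −0.013 for Psme4 and 0.083 for Psmb9. Leave-outs ran from −0.094 to 0.021 for Psme1, −0.34 to 0.17 for Psma8, −0.033 to 0.081 for Psme4, −0.094 to 0.029 for Psme3, −0.016 to 0.10 for Psme2 and −0.15 to 0.11 for Psmb9.

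No paired analysis was possible because the labels give no replicate numbers that groups share. Depth limits Psma8 (100 counts) and Psmb11 (0 counts).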

Other observations

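Lysosomal degradation, the other main route of protein breakdown, was described from a list of 22 autophagy and lysosome genes, of which 2 rose and 1 fell (edgeR's quasi-likelihood test). Ctsl, which encodes the lysosomal protease cathepsin L, fell from 864 ± 145 to 508 ± 47.9 CPM (SD over 4 libraries each; −0.77 on the log2 scale, SE 0.15, adjusted p = 0.0108), and the call held in all 8 leave-outs. Control 2 had the lowest control value, 675 CPM, above the highest sorbate value of 565 CPM. Gabarapl1, an ATG8 family protein of the autophagosome, rose from 155 ± 35.5 to 253 ± 22.1 CPM (0.71, SE 0.16, adjusted p = 0.0181), and Tfeb, a transcription factor of lysosomal genes, rose from 4.72 ± 0.546 to 7.68 ± 1.31 CPM (0.70, SE 0.17, adjusted p = 0.0243). Both calls held in 4 of 8 leave-outs. The list median was 0.03 against −0.02 over all genes tested, and 19 of the 22 genes did not pass the test. Over all genes tested 6.14% were called higher and 6.30% lower.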
